A study of Zea mays with 2 samples.

Results

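This is an account of 40 maize genes whose transcripts were abundant in mesophyll cells of the leaf and nearly absent from bundle sheath cells. Members were selected on their measured levels in both cell types, given in CPM, the UMI count of a gene per 1000000 UMIs of the class. A gene ID was taken when it stood at 100 CPM or more in mesophyll cells and at 16 or more times its sheath level plus 1 CPM, in each of 2 libraries. The genes that define the cell classes were left out, as were 47 gene IDs with a symbol in the text of the article. Of 44146 gene IDs, 1231 that were not left out reached 100 CPM in the mesophyll cells of both libraries. Of these, 40 (3.25%) met the rule. Because these levels chose the members, they are given below as a description, with no test.

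The libraries were droplet-based single-cell 3′ RNA profiles of protoplasts, counted by unique molecular identifier (UMI), a tag that marks 1 captured transcript. Both came from the inbred B73 at the V2 seedling stage, from 6 cm of the distal part of leaf 2, with 6 plants pooled for each library, and no treatment or genotype was compared. The 7340 barcodes of library 1 carried 88081896 UMIs, the 6104 of library 2 carried 41924567, and 11 barcode sequences occurred in both. Barcodes with over 1800 and under 7000 detected genes were kept, 4269 in library 1 and 3389 in library 2. The plants behind library 2 were grown at another time, so growth and library cannot be told apart, and few of the kept barcodes were sheath cells (1.80% and 0.885%).

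Maize fixes carbon by the C4 pathway, which is divided between 2 cell types. Mesophyll cells hydrate CO2 to bicarbonate, fix it with PEP carboxylase and pass malate to the bundle sheath, where malic enzyme releases the CO2 to Rubisco. Mesophyll chloroplasts carry stacked thylakoids rich in photosystem II and produce most of the NADPH, whereas sheath chloroplasts of maize are poor in photosystem II and rely on cyclic electron flow around photosystem I.

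Mesophyll cells were kept barcodes with at least 10 UMIs of PEP1 (PEP carboxylase) and CAH1 (carbonic anhydrase) together, more than those of ME1 (malic enzyme) and RBCS1 (Rubisco small subunit). Sheath cells were the reverse. This gave 4180 mesophyll and 77 sheath cells in library 1, and 3348 mesophyll and 30 sheath cells in library 2, with 12 and 11 kept barcodes in neither class. Markers that the classes did not use followed the labels. RBCS2 stood at 15275 CPM in sheath against 42.8 CPM in mesophyll cells of library 1, and at 22750 against 29.1 CPM in library 2. MDH6, the malate dehydrogenase of the mesophyll, stood at 61.5 CPM in sheath and 2176 CPM in mesophyll cells of library 1, and at 18.1 and 2421 CPM in library 2. PDK1 did not follow the mesophyll label as closely, with 26.9% and 25.8% of its mesophyll CPM in the sheath cells of libraries 1 and 2.

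Sheath depth and a few mixed cells bear on every sheath value. The sheath sums held 1675405 UMIs in library 1 and only 441973 in library 2, so that 1 UMI was worth 0.597 CPM and 2.26 CPM. A floor of 3 counts, where used below, is 1.79 CPM and 6.79 CPM. The exact 95% Poisson interval of a count of 0 reaches higher, to 8.35 CPM in library 2. In library 1, 5 of the 77 sheath cells drew at least 5% of their marker UMIs from PEP1 and CAH1, and the highest drew 44.9%. Those 5 cells held 1374 of the 2548 member UMIs in sheath cells, or 53.9%. Without them, and without the 2 such cells of library 2, the rule would have taken 60 genes, all 40 members among them. No doublet caller was run, the upper gene limit being the study's guard against doublets.

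The 40 members together made up 3.84% of all mesophyll UMIs in library 1 and 4.07% in library 2. In sheath cells they made up 0.152% and 0.0502%. A mesophyll cell devoted a median of 3.82% of its UMIs to them in library 1, with 2.20% and 5.45% at the 5th and 95th percentiles, and a median of 4.04% in library 2, with 2.44% and 5.49%. The median sheath cell devoted 0.0664% in library 1 and 0.0482% in library 2. The classes overlapped only in library 1, where the highest sheath cell reached 1.61%, above 54 of the 4180 mesophyll cells. In library 2 the highest sheath cell, at 0.258%, lay below every mesophyll cell, the lowest of which stood at 0.661%.

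**Figure D1:**
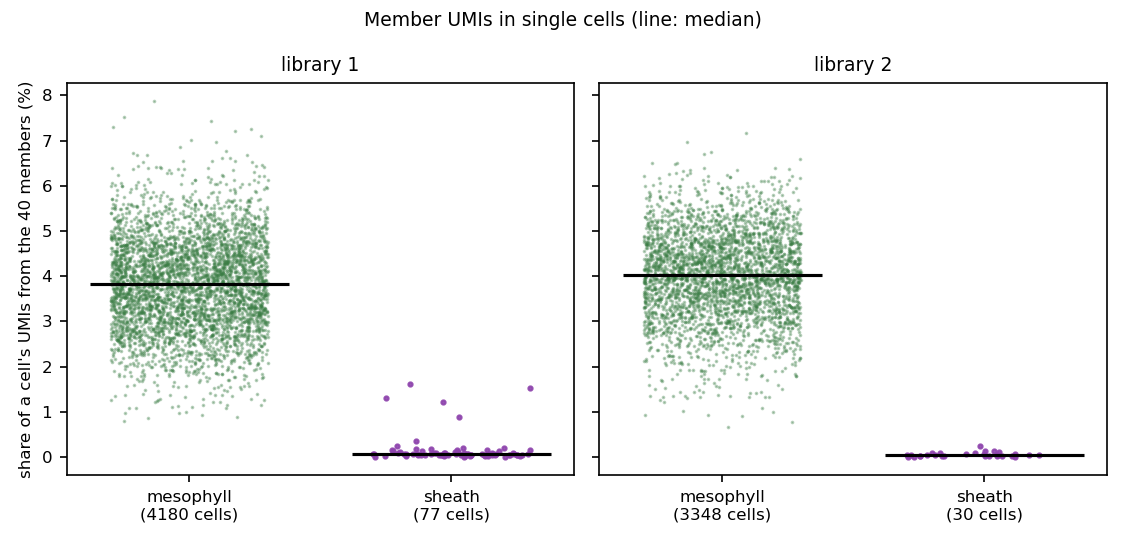
Share of each kept cell's UMIs that came from the 40 members (vertical axis, percent), by class and library; each point is a cell and the line is the median. Mesophyll cells centre at 3.82% and 4.04%, sheath cells at 0.0664% and 0.0482%, and in library 1 a few sheath cells reach up to 1.61%.

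Of the 40 members, 33 had a description in the study's gene tables and 7 had none. The members were far from equal in level. The 6 most abundant, all with a role in photosynthesis, were at 1000 CPM or more in both libraries and held 64.0% of the member UMIs of mesophyll cells in library 1 and 63.1% in library 2. The median member stood at 346 CPM in library 1 and 399 CPM in library 2.

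Zm00001d044096, carbonic anhydrase3, supplies bicarbonate for PEP carboxylase. It stood at 4612 CPM in mesophyll and 170 CPM in sheath cells of library 1, and at 7665 and 22.6 CPM in library 2. It was the 20th and the 8th most abundant nuclear gene of mesophyll cells in those libraries. Its ID is close in number to that of CAH1. How reads common to both carbonic anhydrase genes were counted was not examined, so its level is uncertain to that extent.

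Several members act in the light reactions. Zm00001d018779, an oxygen-evolving enhancer protein 2-1, belongs to the family of PsbP, a lumenal subunit of the water-oxidising complex. It stood at 5520 CPM in mesophyll and 245 CPM in sheath cells of library 1, and at 5751 and 70.1 CPM in library 2. Zm00001d026599, light harvesting chlorophyll a/b binding protein6, an antenna protein, stood at 6633 against 325 CPM in library 1 and at 3019 against 104 CPM in library 2. Both sat far above the median member in either library, and both left more sheath UMIs than any other member.

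The acceptor side of photosystem I was represented by a ferredoxin and its reductase. Ferredoxin carries electrons from photosystem I into the stroma, and ferredoxin-NADP reductase passes them to NADP. The ferredoxin Zm00001d042049 stood at 3641 CPM in mesophyll and 109 CPM in sheath cells of library 1, and at 3909 and 24.9 CPM in library 2. The reductase Zm00001d011833, leaf isozyme 1, stood at 2464 against 64.5 CPM and at 3399 against 33.9 CPM. In library 1 their sheath levels, at 3.00% and 2.62% of the mesophyll level, were below that of the carbonic anhydrase at 3.68%. In library 2, at 0.637% and 0.998%, they were above its 0.295%. Without the 5 mixed cells the carbonic anhydrase was the lowest of these genes in library 1 too. Its mesophyll level was then 101 times sheath plus 1 CPM, against 73.9 times for the ferredoxin and 81.5 times for the reductase.

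Further chloroplast proteins were members as well. Zm00001d019454, PGR5-like protein 1B, is related to PGRL1, which takes part in cyclic electron flow in Arabidopsis. It stood at 1722 and 1930 CPM in mesophyll cells of libraries 1 and 2, and at 66.3 and 13.6 CPM in sheath cells. Zm00001d011256, OHP2, is a one-helix protein needed for photosystem II assembly in Arabidopsis, and stood at 748 and 1220 CPM in mesophyll against 44.8 and 43.0 CPM in sheath cells. Its sheath level, 5.98% of the mesophyll level, was the highest of the 40 members in library 1. Zm00001d051746, a chloroplast calcium sensing receptor, a thylakoid protein linked to stomatal closure in Arabidopsis, stood at 663 and 1142 CPM against 16.7 and 24.9 CPM. Zm00001d002426, a thylakoid lumenal protein, stood at 936 and 572 CPM against 45.4 and 11.3 CPM.

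Copies of these genes did not all share the pattern. A second gene described as oxygen-evolving enhancer protein 2-1, Zm00001d007857, reached 5.3 and 8.8 times sheath plus 1 CPM in libraries 1 and 2, where the member reached 22.5 and 80.8 times. A second leaf isozyme 1 of the reductase, Zm00001d045575, stood at 983 and 1336 CPM in mesophyll cells and at 516 and 539 CPM in sheath cells. Among ferredoxins, ferredoxin5 (Zm00001d035002) was lower in mesophyll than in sheath cells, with 284 against 447 CPM in library 1 and 292 against 584 CPM in library 2. Ferredoxin1 (Zm00001d035001) was higher in mesophyll cells, with 782 against 72.8 CPM and 682 against 33.9 CPM, but below the limit in library 1.

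Keyword lists over the study's gene descriptions place these members among their pathway. Most described genes were cluster markers of these same samples, so the lists are not independent of the data. In the oxygen-evolving list, 6 genes reached 100 CPM in both libraries, all 6 were at least 2 times higher in mesophyll cells in both, and 1 was a member. In the photosystem II and antenna list, 16 of 27 were at least 2 times higher in mesophyll cells in both libraries and 1 was a member. In the photosystem I and antenna list, 0 of 17 were, and the median ratio was 0.63 in library 1 and 0.50 in library 2. In the list of electron carriers and ATP synthase, 8 of 28 were at least 2 times higher in mesophyll and 8 in sheath cells, and 3 were members, the ferredoxin, its reductase and the lumenal protein. The median ratios in libraries 1 and 2 were 4.39 and 6.58 for the oxygen-evolving list, 3.05 and 4.26 for the photosystem II list and 0.81 and 0.70 for the electron carriers. Over all 1231 gene IDs at that level the median ratio was 1.40 and 1.61, and 3.25% were members. The share of all 1231 at least 2 times higher in mesophyll cells was not counted, so the list counts here and below have no background beside them.

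In the carbon and C4 metabolism list, 5 of 17 genes at 100 CPM were at least 2 times higher in mesophyll cells in both libraries and 2 in sheath cells. Of the 17, 1, carbonic anhydrase3, was a member. The median ratio of that list was 1.13 in library 1 and 1.22 in library 2. Other members with a metabolic description lay outside that list. Zm00001d021310 is a triosephosphate isomerase, which interconverts the triose phosphates. It stood at 868 and 899 CPM in mesophyll cells of libraries 1 and 2, on 67 and 3 sheath UMIs. Zm00001d045431, Enolase 1, which forms phosphoenolpyruvate, stood at 128 and 255 CPM in mesophyll cells on 9 and 3 sheath UMIs. Zm00001d023929, the oxo-glutarate/malate transporter1, exchanges dicarboxylates across the chloroplast envelope. It stood at 235 and 171 CPM in mesophyll cells, with 19 sheath UMIs in library 1 and 0 in library 2.

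A second group carried descriptions linked to defence, wounding and lipid oxidation. The defence list held 21 genes at 100 CPM, of which 14 were at least 2 times higher in mesophyll cells in both libraries. As much higher in sheath cells were 0, and 4 were members. These counts too have no background beside them, and the list is not independent of the data. The median ratio of the list was 4.51 in library 1 and 10.2 in library 2, against 1.40 and 1.61 over all 1231 gene IDs. Zm00001d036370, Chitinase2, an enzyme family that cleaves fungal cell walls, had the lowest sheath level of all members in library 1 as a share of its mesophyll level. In library 2 it was 1 of 11 members with 0 sheath UMIs. It stood at 318 and 315 CPM in mesophyll cells, with 2 sheath UMIs in library 1 (1.19 CPM, exact Poisson interval 0.145 to 4.31 CPM) and 0 in library 2. Against a floor of 3 sheath counts, its mesophyll level in library 2 was 46.4-fold higher. Both of its sheath UMIs lay in the 5 cells with mesophyll marker UMIs described above. Lipoxygenases oxygenate polyunsaturated fatty acids. Zm00001d053675, lipoxygenase10, required for green leaf volatiles in maize, stood at 504 and 565 CPM in mesophyll cells, with 25.7 and 13.6 CPM in sheath cells. Zm00001d002000, lipoxygenase6, stood at 152 and 145 CPM, on 9 and 1 sheath UMIs, and Zm00001d004342, Natterin-4, at 279 and 145 CPM, on 14 and 0.

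The redox and detoxification list held 1 member among 40 genes at 100 CPM. This was Zm00001d011154, glutathione transferase27, of a family that joins glutathione to electrophiles, which stood at 821 and 1019 CPM in mesophyll cells. It left 49 sheath UMIs in library 1, 26 of them in the 5 mixed cells, and 0 in library 2. Taken against 3 sheath counts, its mesophyll level in library 2 was 150-fold higher. Outside the list, Zm00001d044765, a benzoate carboxyl methyltransferase, stood at 369 and 162 CPM, and Zm00001d033061, DETOXIFICATION 40 of the MATE family of efflux carriers, at 174 and 120 CPM. A UDP-glycosyltransferase (Zm00001d039607) and a cytochrome P450 (Zm00001d003283) stood between 106 and 181 CPM in mesophyll cells of either library.

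The other described members were in none of the keyword lists, although an elicitor-responsive protein and a disease resistance gene analog among them also have names that refer to defence. Zm00001d042909, Elicitor-responsive protein 1, stood at 864 and 918 CPM in mesophyll cells. Zm00001d044666, a protein with an FHA domain, which binds phosphothreonine, stood at 657 and 969 CPM and left 0 sheath UMIs in library 2. Zm00001d022630, named knotted1 induced1, stood at 1133 and 404 CPM. The leucine-rich repeat protein Zm00001d002402, an SPRY domain protein (Zm00001d017210), a disease resistance gene analog (Zm00001d003048) and Expansin-B4 (Zm00001d047096), a cell wall loosening protein, lay between 268 and 1078 CPM. Of the 7 members without a description, Zm00001d020852 was the most abundant, at 751 and 674 CPM. The remaining members, described and not, lay between 105 and 509 CPM.

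**Figure D2:**
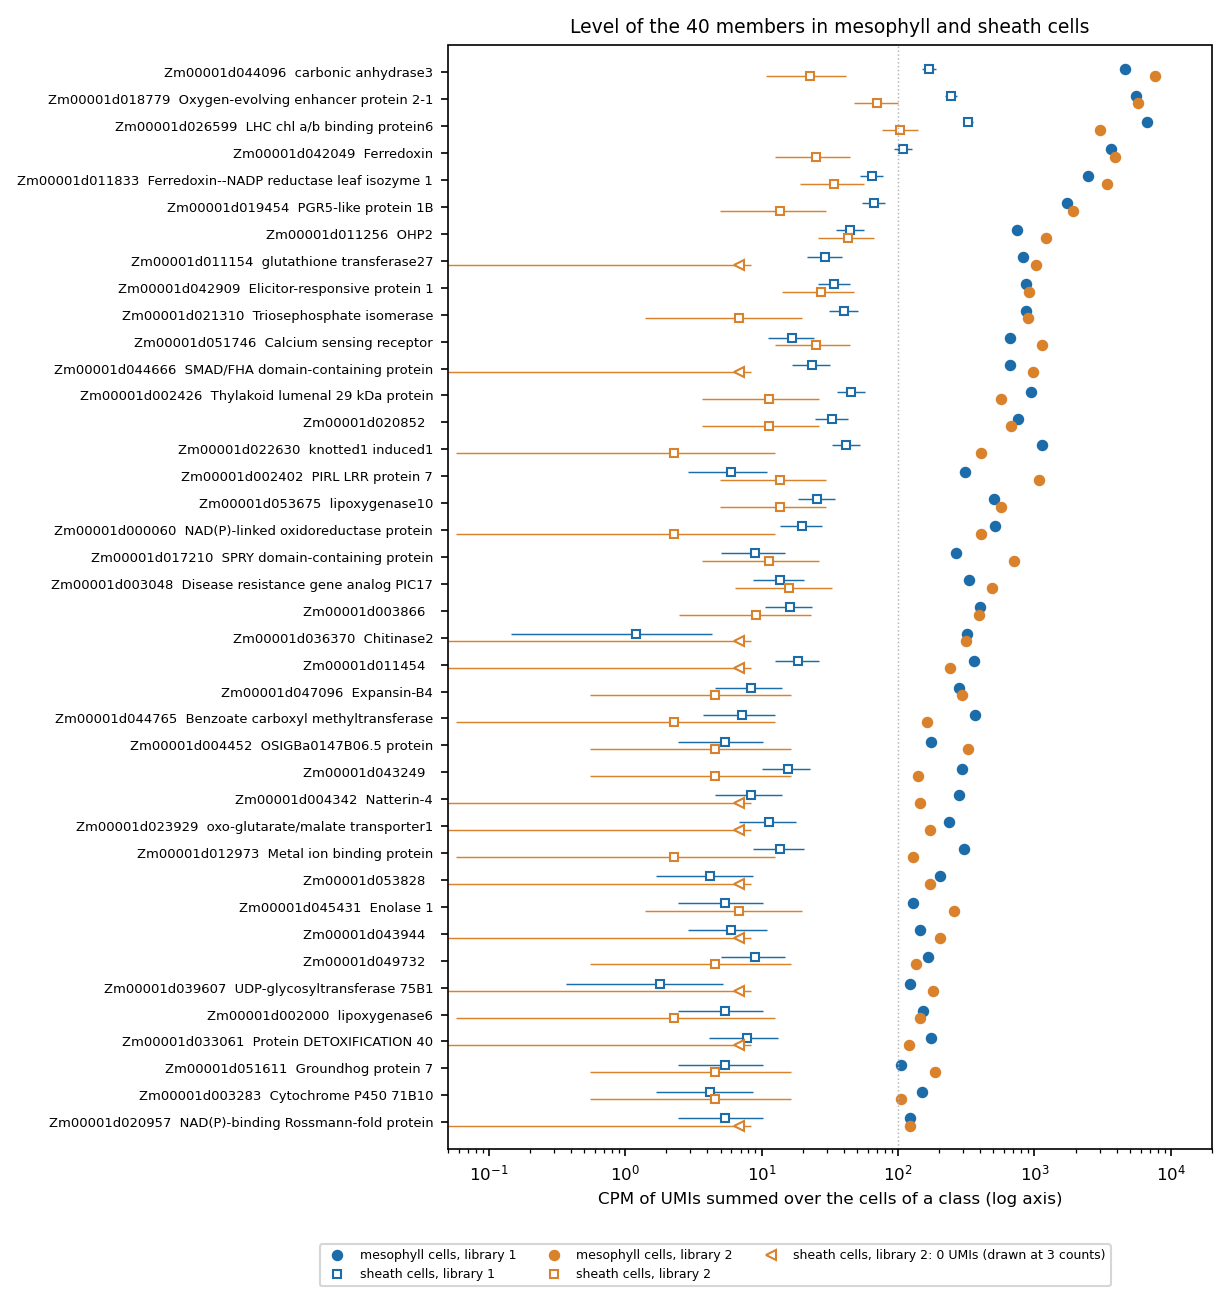
Level of each member (rows, ordered by mean log2 mesophyll level) in mesophyll cells (filled circles) and sheath cells (open squares with exact 95% Poisson intervals, which cover counting error only) of each library, in CPM on a log axis; triangles mark 0 sheath UMIs, drawn at 3 counts, and the dotted line is the 100 CPM minimum. Mesophyll levels reach from 105 to 7665 CPM, and 11 members have 0 sheath UMIs in library 2.

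The sheath levels of the members were set beside those of the mesophyll class markers. Both were limited in advance, the members by the fold limit of the rule and PEP1 and CAH1 by the class definition. Their nearness, and the scatter of members given below, are therefore a description and not a result about the members. In library 1 the members summed to 3.96% of their mesophyll level in sheath cells, and PEP1 and CAH1 to 3.74%. Without the 5 mixed cells these values were 1.94% and 1.42%. In library 2 they were 1.24% and 0.925%. The single members scattered around the summed value. In library 1 the exact 95% interval held 3.96% for 31 of 40 members, lay below it for 6, Chitinase2 and the ferredoxin and its reductase among them, and above it for 3, OHP2, the light harvesting protein and the oxygen-evolving protein. In library 2 the interval held 1.24% for 32 members, lay below it for 4 and above it for 4. OHP2 and the light harvesting protein were above in both libraries, and the ferredoxin Zm00001d042049 was below in both. The library 1 intervals include the 5 mixed cells. Without them the oxygen-evolving protein stood at 110 CPM in sheath cells of library 1, against 245 CPM with them. RNA of mesophyll origin in sheath barcodes cannot be told apart from expression in sheath cells.

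The limit of the rule cut through a continuum. The members closest to it in library 1 were OHP2 at 16.4 times sheath plus 1 CPM, Zm00001d051611 (Groundhog protein 7) at 16.5 and Zm00001d049732 at 16.7. Just outside lay Zm00001d019057 at 15.97, Zm00001d003559, a chloroplast ferric reduction oxidase, at 15.96, and Zm00001d023735 at 14.8. In library 2 the closest members were Zm00001d003283 at 19.1, Zm00001d049732 at 24.4 and Zm00001d043249 at 25.1, each on 2 sheath UMIs. The closest genes outside were Zm00001d016446, a cysteine proteinase, at 15.38, Zm00001d042098, a glutathione S-transferase, at 15.38 and Zm00001d003212 at 15.1. Against a sheath level of at least 3 counts, 39 members reached 16-fold in library 2 and all 40 did in library 1. Zm00001d003283 fell short.

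Barcodes outside the kept range were not used to choose the members and show them in other droplets of the same libraries. Among barcodes with over 500 and up to 1800 genes, 1676 and 1782 were mesophyll and 113 and 38 sheath by the same marker definition. All 40 members were higher in mesophyll than in sheath barcodes in both libraries, as were 65.8% of the 1231 gene IDs at 100 CPM, and the median ratio (over sheath plus 1 CPM) was 7.82 in library 1 and 16.3 in library 2, against 24.2 and 66.3 in the kept cells. The kept ratios were selected to be 16 or more, so the kept and low-gene values are not on an equal footing. In kept cells of library 2, the ratios of the 11 members with 0 sheath UMIs are set by the added 1 CPM. That is less than 1 UMI, which was worth 2.26 CPM there. Over the 1231 gene IDs the median ratio in the low-gene barcodes was 1.53 and 1.67. Summed over members, the sheath barcodes held 12.2% and 7.42% of the mesophyll level. With over 1000 to 1800 genes as the range, the sums were 7.52% and 6.05%, the median ratios 11.8 and 20.7, and all 40 members were again higher in mesophyll barcodes. PEP1 and CAH1 stood at 1679 and 1443 CPM in these sheath barcodes, and at 18963 and 13073 CPM in the mesophyll ones. The lowest ratio in library 2 was that of knotted1 induced1, which had 206 CPM in low-gene sheath barcodes against 556 CPM in mesophyll ones, on 19 UMIs. In its kept sheath cells the same gene had 1 UMI. Chitinase2 reached a ratio of 8.23 in the low-gene barcodes of library 1, on 2 sheath UMIs, beside the member median of 7.82. In those of library 2 it had 0 sheath UMIs.

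Few barcodes lay at 7000 genes or more. The 4 mesophyll barcodes there, all in library 1, gave 2.42% of their UMIs to the members. The kept barcodes of neither class gave 0.336% and 0.420%, on 574 and 426 UMIs. Of those UMIs, 143 and 87 were carbonic anhydrase3, at 836 CPM (705 to 985) in library 1 and 858 CPM (687 to 1058) in library 2, exact Poisson intervals that cover counting error only. In the 32 mesophyll cells of library 1 with at least 3 UMIs of the nicotianamine synthase genes, members took 4.25% of UMIs, against 3.84% in the others. Library 2 had 1 such cell.

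Within the mesophyll barcodes, the low-gene ones were tested against the kept ones over all genes. The UMIs of each library and range were summed, giving 4 sums, and tested with edgeR's quasi-likelihood test with library as a term. The replicates are the 2 libraries, not the cells, and the CPM values of this test are scaled by TMM factors. Of 17179 genes tested, 1060 (6.17%) passed an adjusted p of 0.05, 941 higher (5.48%) and 119 lower (0.693%) in the low-gene barcodes. Of the 40 members 3 passed (7.5%), 2 higher and 1 lower, a share close to that of all genes. The median log2 fold change of members was -0.24, beside -0.05 for all genes.

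The lipoxygenases were the members that rose. Lipoxygenase10 stood at 2092 CPM in low-gene and 496 CPM in kept mesophyll barcodes of library 1, and at 1047 and 623 CPM in library 2. Its log2 fold change was 1.41 ± 0.45 (SE), with an edgeR adjusted p of 0.035. The SE here and below was back-calculated from the fold change and the F statistic of the test. Lipoxygenase6 stood at 541 against 150 CPM in library 1 and at 246 against 160 CPM in library 2, a log2 fold change of 1.24 ± 0.41 (adjusted p = 0.044, edgeR). Both were higher in 2 of 2 libraries, but the difference was larger in library 1, where their log2 ratios were 2.08 and 1.85, than in library 2 alone, where they were 0.75 and 0.62.

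Chitinase2 fell. It stood at 68.0 CPM in low-gene and 313 CPM in kept mesophyll barcodes of library 1, and at 238 and 347 CPM in library 2, with a log2 fold change of -1.37 ± 0.41 (adjusted p = 0.024, edgeR), -2.19 in library 1 and -0.55 in library 2. The 3 calls depended on the settings. Of 10 alternatives, Chitinase2 passed in 7 (adjusted p from 0.00942 to 0.694, edgeR or DESeq2), lipoxygenase10 in 6 (0.0148 to 0.688) and lipoxygenase6 in 4 (0.0174 to 0.688). The next members, which did not pass, were the leucine-rich repeat protein Zm00001d002402 at -1.07 ± 0.43 (adjusted p = 0.11, edgeR) and the SPRY protein Zm00001d017210 at -1.07 ± 0.42 (adjusted p = 0.11, edgeR). An unadjusted p of 0.05 was reached by 9 of 40 members (22.5%) and by 22% of all genes. The photosynthetic members lay closer to 0. The oxygen-evolving protein was at -0.16 ± 0.48, the light harvesting protein at 0.08 ± 0.48 and carbonic anhydrase3 at -0.62 ± 0.49.

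Other genes of the defence list moved in both directions in this comparison. Of 68 tested, 3 passed higher and 5 lower. Besides the 3 members, Bowman-Birk inhibitor1 (Zm00001d042867) was higher at 2.84 ± 0.58 and Chitinase 1 (Zm00001d032947) and Endochitinase A (Zm00001d003190) were lower at -1.56 ± 0.40 and -1.12 ± 0.38. Also lower were a WRKY gene, Zm00001d039032, at -1.53 ± 0.39 and another Bowman-Birk inhibitor, Zm00001d024996, at -1.17 ± 0.39, the latter at -2.49 in library 1 and 0.091 in library 2. In the photosystem lists 0 of 29 (II) and 0 of 20 (I) passed, with median log2 fold changes of 0.08 and 0.00. Of 257 ribosomal protein genes 19 passed, all lower.

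The low-gene barcodes also differed outside the members. Chloroplast transcripts made up 5.87% of their UMIs against 1.95% in kept mesophyll cells of library 1, and 1.71% against 1.34% in library 2. The 9 sheath markers summed to 1288 against 259 CPM in library 1 and 410 against 273 CPM in library 2, with 0 of 9 at 0. Mitochondrial transcripts made up 0.997% against 0.136% and 0.468% against 0.165%. In barcodes with no UMI of ME1 or RBCS1, an alternative added after the data were seen, the 3 calls stood. Their log2 fold changes were 1.47, 1.25 and -1.44 for lipoxygenase10, lipoxygenase6 and Chitinase2. In all, 3 members passed higher and 1 lower there. Of the 9 sheath markers 2 were then at 0. The 9 still summed to 598 against 122 CPM in library 1, and to 217 against 121 CPM in library 2. The part of sheath RNA, organelle share and depth in these results was not tested. With over 1000 to 1800 genes as the low range, 0 members passed, and the log2 fold changes were 1.29, 1.16 and -1.32.

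**Figure D3:**
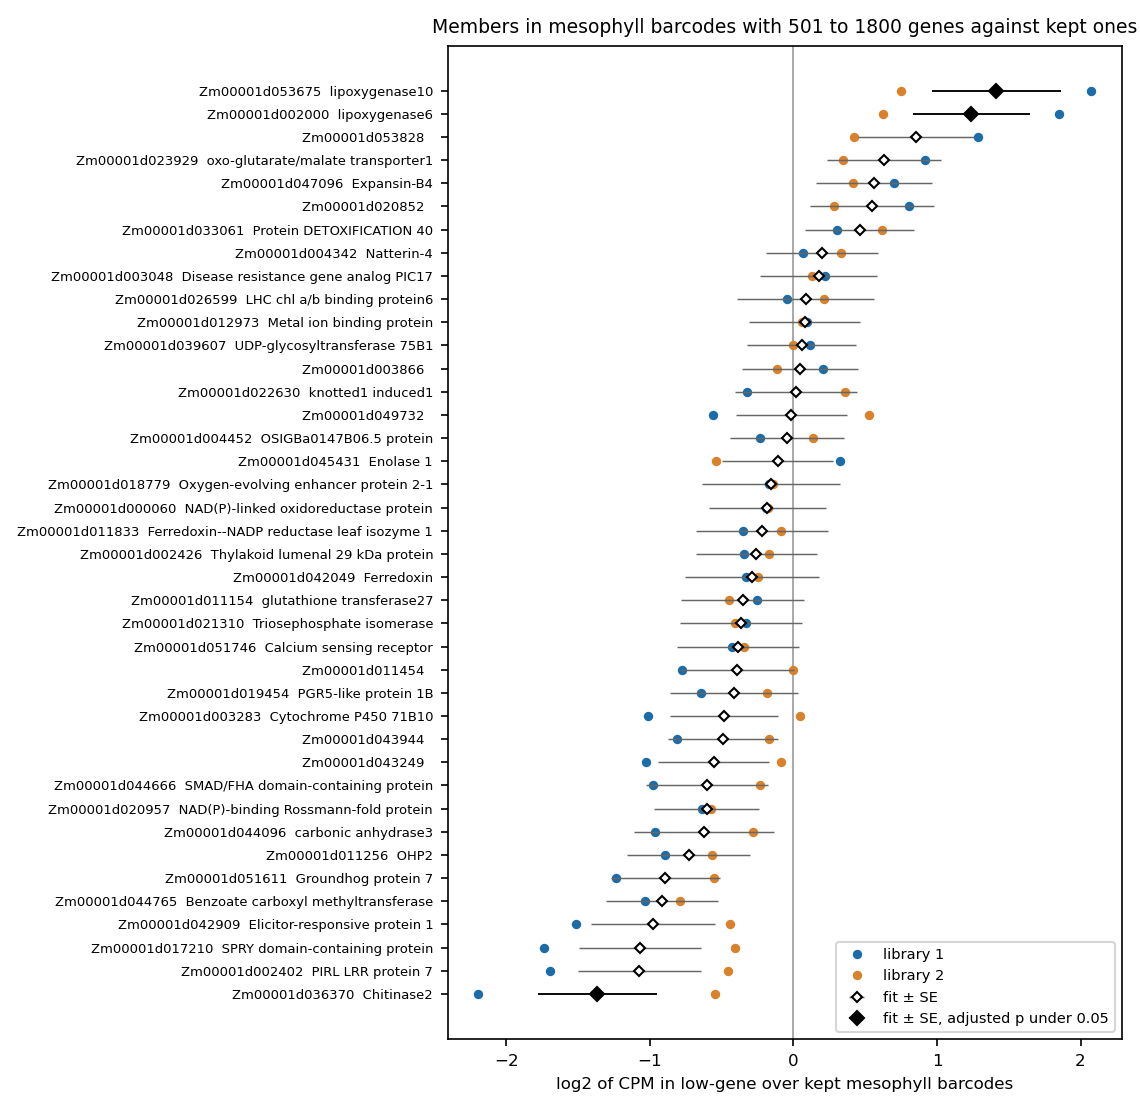
Log2 ratio of each member's CPM in low-gene mesophyll barcodes (over 500 to 1800 genes) over that in kept mesophyll barcodes (horizontal axis), for each library (circles) and for the edgeR fit with its SE (diamonds, filled where the adjusted p is under 0.05). Lipoxygenase10 and lipoxygenase6 lie highest, at 1.41 and 1.24, and Chitinase2 lowest, at -1.37; library 1 lies farther from 0 than library 2 in all 3.

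The members were also compared between kept mesophyll cells above and at or below their library's median share of chloroplast-genome UMIs. In edgeR, 0 of 17342 nuclear genes (0%) and 0 of 40 members passed an adjusted p of 0.05. At an unadjusted p of 0.05 there were 3164 genes (18.2%) and 11 members (27.5%), and DESeq2 called 208 genes (1.2%) and 1 member. The member nearest to the threshold was Zm00001d053828, without a description, at 149 CPM in cells of high and 238 CPM in cells of low chloroplast share in library 1, and at 98.2 against 278 CPM in library 2. Its log2 fold change was -1.08 ± 0.20 (adjusted p = 0.091, edgeR), lower in 2 of 2 libraries. Chitinase2 was at 0.54 ± 0.15 (adjusted p = 0.14, edgeR), with 351 against 268 CPM and 412 against 254 CPM. The call depended on the settings. Zm00001d053828 passed in 5 of 9 alternatives, with adjusted p from 0.000198 to 1.00 over all of them, and Chitinase2 in 2 of 9, from 0.0259 to 1.00. Cells of high share held a median of 17761 UMIs against 19451 in library 1, and 9967 against 8862 in library 2, so that depth moved in opposite directions. Its part was not tested.

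Between the libraries, each of which gives 1 value, the mesophyll levels of members kept much of their order. The median log2 ratio of library 2 to library 1 was 0.05 over the members and 0.07 over the 1231 gene IDs at 100 CPM. Of the members, 2 were more than 2-fold higher in library 2 and 5 more than 2-fold lower, where 4.06% and 3.01% of the 1231 were. The highest ratios were those of the leucine-rich repeat protein Zm00001d002402 (309 and 1078 CPM, ratio 3.49), the SPRY protein (268 and 703 CPM, 2.63) and Enolase 1 (1.99). The lowest were those of knotted1 induced1 (0.36), a metal ion binding protein, Zm00001d012973 (303 and 128 CPM, 0.42), and the benzoate carboxyl methyltransferase (0.44). With 1 library a side there is no replicate check on these ratios.

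How evenly the members were spread over mesophyll cells was read after each cell had been thinned to 3000 UMIs, which left out 0 cells. At that depth a member was found in a median of 54.7% of mesophyll cells in library 1 and 55.4% in library 2, against 3.90% and 3.33% of the thinned sheath cells. Without thinning the mesophyll medians were 89.4% and 84.2%. The 6 most abundant members were found in over 97% of thinned cells in both libraries, for example the light harvesting protein in 99.8% and 97.1%. At the other end, Zm00001d053828 was found in 17.8% and 12.9%.

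The spread beyond counting noise, as a coefficient of variation between cells, ranged from 0.22 to 3.95 in library 1 and from 0.25 to 4.35 in library 2. The steadiest members were PGR5-like protein 1B (0.22 and 0.25), the FHA domain protein Zm00001d044666 (0.30 and 0.25) and the calcium sensing receptor (0.27 and 0.30). The ferredoxin and its reductase came next, at 0.31 and 0.35 for the former and 0.29 and 0.35 for the latter. The most variable were Zm00001d053828 (3.95 and 4.35), the cytochrome P450 Zm00001d003283 (1.91 and 2.29) and knotted1 induced1 (1.63 and 1.85). A thinned cell held up to 39 UMIs of Zm00001d053828 in library 1 and 36 in library 2, over means of 0.650 and 0.496. Of knotted1 induced1 a cell held up to 108 and 36 UMIs, over means of 3.46 and 1.16. These genes were thus high in a minority of mesophyll cells in both libraries.

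**Figure D4:**
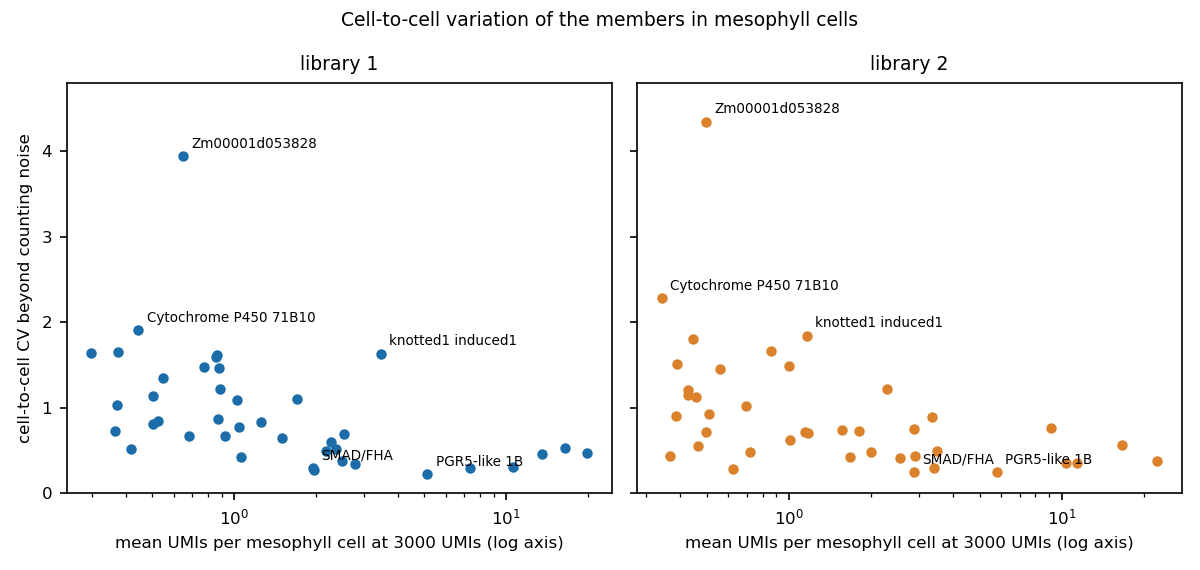
Coefficient of variation of each member between mesophyll cells beyond counting noise (vertical axis), against its mean UMIs per cell at 3000 UMIs (log axis), by library. Zm00001d053828 stands apart at 3.95 and 4.35, and PGR5-like protein 1B is among the lowest at 0.22 and 0.25.

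Members did not vary together as 1 block. Spearman correlations over the thinned mesophyll cells (4180 and 3348) were taken with the oxygen-evolving protein Zm00001d018779, a choice made after the values were seen. Cells share their library, depth is equal by construction, and a rise of some genes in a fixed total lowers others, so the correlations are a description. With Zm00001d018779, 31 of the other 39 members correlated positively in both libraries, against 45.7% of the 1240 genes at 100 CPM, and 8 negatively, against 43.6%. The 1240 include the other members and the genes with a symbol in the article, which the rule had left out. Above 0.3 in both libraries were 6 members (15.4%), against 8.39% of those genes, and below -0.3 were 4 (10.3%), against 13%.

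On the positive side were carbonic anhydrase3 (rho 0.44 in library 1 and 0.50 in library 2), the light harvesting protein (0.51 and 0.44), Expansin-B4 (0.45 and 0.43) and the thylakoid lumenal protein (0.38 and 0.37). On the negative side were Chitinase2 (-0.40 and -0.42), the leucine-rich repeat protein Zm00001d002402 (-0.36 and -0.54), Elicitor-responsive protein 1 (-0.33 and -0.43) and the SPRY protein (-0.32 and -0.44). In the cells lowest in the oxygen-evolving protein (1045 in library 1 and 837 in library 2), Chitinase2 was found in 64.2% of thinned cells of library 1 and 65.0% of library 2. In as many cells highest in it, Chitinase2 was found in 15.2% and 15.5%. Expansin-B4 went the other way, from 14.0% and 13.1% to 65.6% and 63.1%.

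Other members had low correlations with Zm00001d018779, among them the ferredoxin-NADP reductase (0.10 and 0.09) and PGR5-like protein 1B (0.12 and 0.17). Both were among the steadiest members. Counting noise made up much of their spread, which limits how high their correlations can be. The C4 markers CAH1 (0.01 and 0.08) and PEP1 (0.20 and 0.25) were low as well. Among the 6 most abundant members, the reductase was closest to the ferredoxin, at 0.31 and 0.38. Outside the members, the genes most like Zm00001d018779 were a photosystem II reaction center W protein, Zm00001d043299 (0.85 and 0.84), and photosystem I reaction center6, Zm00001d018797 (0.81 and 0.81). Of the 6 most positive genes, 3 were photosystem I genes lower in mesophyll than in sheath cells. The other 3, which include an oxygen-evolving enhancer protein 3-1, Zm00001d006540 (0.81 and 0.79), and light harvesting complex mesophyll7, Zm00001d039040 (0.80 and 0.81), were higher in mesophyll cells. The genes most unlike it were thioredoxin h homolog2, Zm00001d019034 (-0.66 and -0.67), and Sugar transport protein 13, Zm00001d028230 (-0.61 and -0.63).

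**Figure D5:**
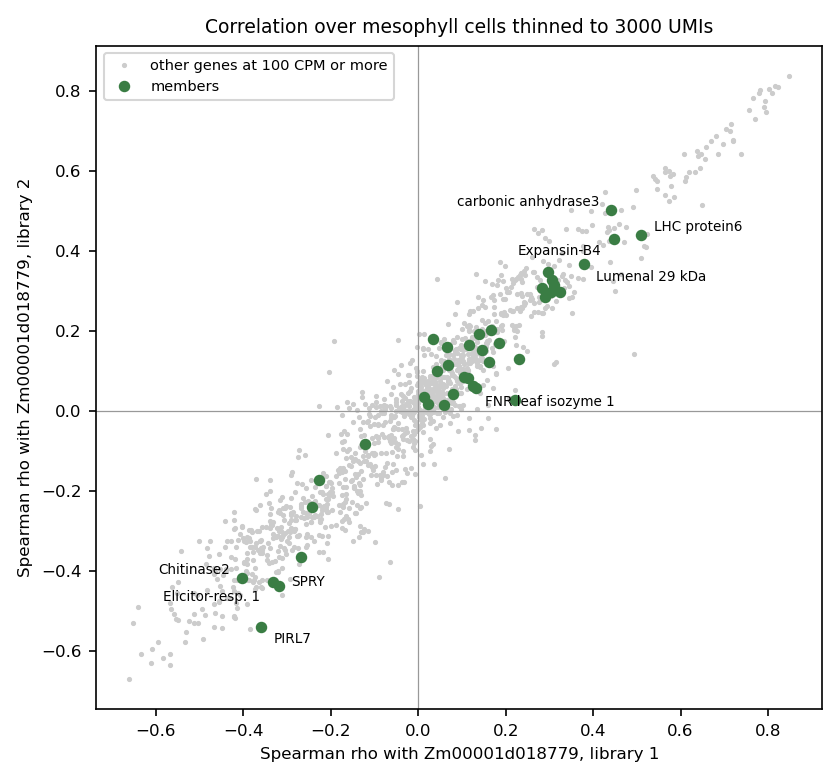
Spearman correlation of each gene with the oxygen-evolving protein Zm00001d018779 over mesophyll cells thinned to 3000 UMIs, library 1 (horizontal) against library 2 (vertical); green points are members and grey points other genes at 100 CPM or more in both libraries. Carbonic anhydrase3 lies at 0.44 and 0.50, and the leucine-rich repeat protein Zm00001d002402 (PIRL7) at -0.36 and -0.54.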

How the data were processed

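The authors made the deposited UMI counts with Cell Ranger 3.1.0, which aligns with STAR, to the RefGen_v4 assembly of B73 with gene models from Ensembl, and the counts were not normalized. UMIs were summed per class and library and divided by the class total, organelle features (157 chloroplast, 208 mitochondrial) included, to give CPM. Intervals are exact Poisson intervals at 95% and cover counting error only. Differences were tested with edgeR 4.0.16 (quasi-likelihood, filterByExpr, TMM, a library term that pairs the 2 sums of each library, Benjamini-Hochberg threshold 0.05) over all genes, which leaves 1 residual degree of freedom. The SE printed with a log2 fold change is its absolute value over the square root of the edgeR F statistic. DESeq2 1.42.0 and the other settings below were alternatives. The tests were also run on simulated counts. Those were drawn from the same gene proportions for both libraries, so they cannot show error rates where the libraries differ. The 2 libraries are separate protoplast pools.

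Kept cells had medians of 18598 and 9419 UMIs. Named members were the 10 most abundant, up to 4 per keyword list, up to 5 called per direction and test, and the extremes of library ratio, variation and rule limit; other named genes were chosen after their values were seen. Members and lists were chosen with earlier results of these data known. Descriptions come from the study's gene tables. Of the members, 0 were found in the reference table used here, so positions and sequences were not used. The authors' own comparison columns (fold changes and p-values of clusters) were not used.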

Additional observations from a re-analysis of the deposited data

How the results depend on the processing

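The number of members, 40 by the rule, was 83 at a fold of 8, 8 at a fold of 32 and 24 at a minimum of 200 CPM, and between 47 and 106 with 1 library left out. The organelle limits of the study gave 40 genes, 38 of them members, and other settings gave 40 to 60. In the low-gene test, calls were 253 of all genes and 1 member with DESeq2, 622 and 1 without a filter, 198 and 0 with a low range of over 1000 to 1800 genes, and 1087 and 1 with the organelle limits. Without the library term that pairs the sums (no replicate block), 0 genes and 0 members were called at an adjusted p of 0.05, and 1244 genes at an unadjusted p of 0.05. The median log2 fold change of members was between -0.33 and -0.13 in single libraries.

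In the chloroplast share test, where edgeR called 0, the counts of genes and members were 208 and 1 with DESeq2, 228 and 1 with RLE factors, 1116 and 3 without a filter, 118 and 1 with at least 10 UMIs in every sum, 11 and 0 with the organelle limits, and 1073 and 4 in cells of intermediate UMI number. Without the replicate block 0 genes were called. The median log2 fold change of members, -0.06, was between -0.24 and 0.053 in single libraries, the latter in library 1. The cause of these differences was not tested. That test already leaves organelle features out.

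At 5000 UMIs per cell the median share of cells with a member was 69.1% and 69.2%, and unthinned 89.4% and 84.2%. The median variation was 0.70 in library 1, against 0.76. Sheath depth, above all the 30 cells of library 2, limits how low a sheath level can be read.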
